A study of Mus musculus with 51 samples.

Results

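The 10 genes described here encode the growth factors and receptors that build and maintain blood vessels: the ligands Vegfa, Vegfb, Vegfc and Pgf, the receptors Flt1 and Kdr with the co-receptor Nrp1, and the angiopoietin axis of Angpt1, Angpt2 and their receptor Tek. They were chosen by gene name, with earlier results of these data known, and all 10 were found among the 48321 gene symbols of both count tables. The RNA came from whole mouse gastrocnemius, a fast calf muscle, and each of 51 libraries counted transcripts by a tag near the 3′ end. Batch 1 held 4 floxed controls and 3 Bmal1 knockouts (Bmal1KO) on regular chow, and 7 controls and 5 Bmal1 knockouts on high-fat diet. Batch 2 held high-fat-fed mice of 3 lines, each with its own floxed control: 8 Bmal1fx/fx controls and 4 Bmal1KO, 6 Vhlfx/fx controls and 4 VhlKO, and 6 Bmal1fx/fx;Vhlfx/fx controls and 4 double knockouts (Bmal1KO;VhlKO). The series describes the Bmal1 deletion as restricted to skeletal muscle. No source used here gives the Cre driver, the deleted exons, whether controls carried Cre, the animals' age and sex, or the hour at which muscle was taken. Replicates are separate animals by their numbering in the labels. Animal numbers follow the sample titles, and for some Bmal1 knockouts of batch 2 the column numbers of the counts differ from them.

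VEGF-A, placental growth factor and VEGF-B bind FLT1, VEGF-A signals mainly through KDR on endothelial cells with neuropilin-1 as co-receptor, and VEGF-C acts chiefly on lymphatic and venous endothelium. Angiopoietin-1, made by cells around the vessel, activates the endothelial receptor TEK, and angiopoietin-2, released by endothelium, modulates it. VHL marks the hypoxia-inducible factors (HIF) for degradation, Vegfa is a classic HIF target, muscle fibres are a main source of VEGF-A in this tissue, and BMAL1 with CLOCK is the transcription factor at the core of the circadian clock.

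The library labels were checked first against the targeted genes. Arntl, the gene symbol of Bmal1, stood at 12.3 to 18.5 CPM (counts per 1000000 of a library, scaled between libraries) in the 7 high-fat controls of batch 1 and at 5.40 to 9.18 in the 5 knockouts, and at 13.8 to 17.9 against 9.31 to 13.6 in the double line. On chow the ranges overlapped, 7.83 to 20.3 CPM in controls and 4.54 to 9.61 in knockouts, and the difference did not pass (log2 difference -0.91 ± 0.28 SE, edgeR quasi-likelihood adjusted p = 0.0821). In the Bmal1 line of batch 2 they overlapped too, 8.61 to 13.0 against 8.29 to 10.6, and the difference did not pass (-0.24 ± 0.13, adjusted p = 0.239), while Clock was higher by 1.02 ± 0.07. Vhl was lower in the Vhl knockouts (0.797 to 2.73 against 1.67 to 5.04 CPM, log2 difference -0.85 ± 0.30, adjusted p = 0.0217) and in the double knockouts (1.64 to 3.73 against 3.51 to 5.59 CPM). A 3′ tag can lie outside a deleted part, so these levels check the labels only in part. Libraries held 8.72 to 14.7 M counts (M, 1000000) in batch 1 and 6.95 to 14.7 M in batch 2, and mitochondrial transcripts took 16.6% to 42.5% of them. Markers of the muscle fibre such as Ckm and Acta1 summed to 78920 to 147600 CPM in every library, and Krt5 and Krt14, genes of skin, together passed 1 CPM in 6 libraries of batch 2.

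The stretches upstream of the genes are shown for 5 members, Vegfa, Flt1, Kdr and Tek, which rose in both Vhl-deficient lines, and Vegfb, which fell after Vhl loss, because the deleted genes act in the HIF pathway and the clock. RefSeq (GRCm38.p6) gave a start site window for 8 of the 10 members, 10 windows in all with 2 each for Vegfa and Pgf. The 250 bases before each start were searched on both strands for the HIF core, ACGTG or GCGTG, and for the E-box of clock factors, CACGTG, which contains ACGTG. The HIF core stood in 6 of the 10 windows and in 38.6% of all 32851 windows of the same length, and CACGTG in 0 of 10 against 6.0% of all windows. Each run below reads 5′ to 3′ on the gene's strand and ends just before its start site. Capitals mark the HIF core, written CACGC where the match lay on the opposite strand. They lie on GRCm38 at chr17:46032378-46032627 (Vegfa), chr5:147726012-147726261 (Flt1), chr5:75978459-75978705 (Kdr), chr4:94739039-94739288 (Tek) and chr19:6987652-6987901 (Vegfb), of which the last is on the minus strand like the others except Tek. The RefSeq start of Nrp1 lies 469 bases from its GENCODE start, and its window is not printed. For Kdr the 3 bases next to the start were left out because GENCODE places them in its first exon.
Vegfa: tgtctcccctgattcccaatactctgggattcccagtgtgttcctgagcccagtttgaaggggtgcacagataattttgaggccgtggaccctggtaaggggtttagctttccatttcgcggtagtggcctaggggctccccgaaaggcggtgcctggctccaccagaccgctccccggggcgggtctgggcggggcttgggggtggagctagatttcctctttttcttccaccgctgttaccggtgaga
Flt1: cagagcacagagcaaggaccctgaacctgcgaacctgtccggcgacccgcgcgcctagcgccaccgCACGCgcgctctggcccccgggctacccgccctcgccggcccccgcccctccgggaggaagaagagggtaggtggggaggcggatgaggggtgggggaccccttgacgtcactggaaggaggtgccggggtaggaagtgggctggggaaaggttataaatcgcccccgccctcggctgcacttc
Kdr: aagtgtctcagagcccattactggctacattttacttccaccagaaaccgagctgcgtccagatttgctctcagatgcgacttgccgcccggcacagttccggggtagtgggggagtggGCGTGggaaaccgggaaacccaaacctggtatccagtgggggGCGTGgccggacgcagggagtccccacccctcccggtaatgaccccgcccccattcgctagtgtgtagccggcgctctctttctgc
Tek: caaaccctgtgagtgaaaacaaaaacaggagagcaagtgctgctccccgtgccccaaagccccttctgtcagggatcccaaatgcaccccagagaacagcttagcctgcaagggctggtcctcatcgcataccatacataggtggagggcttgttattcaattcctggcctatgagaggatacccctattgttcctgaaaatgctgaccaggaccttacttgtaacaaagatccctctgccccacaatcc
Vegfb: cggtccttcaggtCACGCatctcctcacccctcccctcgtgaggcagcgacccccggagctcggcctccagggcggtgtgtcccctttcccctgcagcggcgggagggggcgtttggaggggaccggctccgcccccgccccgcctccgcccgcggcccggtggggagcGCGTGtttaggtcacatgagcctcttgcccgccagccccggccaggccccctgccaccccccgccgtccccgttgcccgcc

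Flt1 had 1 match, 184 bases before the start, Kdr had 2, at 131 and 89 bases, and Vegfb had 2, at 237 and 81 bases. The outer start window of Vegfa and the window of Tek held none, and the inner window of Vegfa, 7206 bases inside the gene from its GENCODE start, held 2. Vegfc held none, Nrp1 held 1 and Pgf held 1 in 1 of its 2 windows. A match is only a run of letters, and its absence concerns only these windows.

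Loss of Vhl raised Vegfa, its 3 receptors, Tek, Angpt2 and Vegfc and lowered Vegfb. In the fit over all 13093 genes of batch 2, 8 of the 10 members passed an adjusted p of 0.05 (edgeR quasi-likelihood test, Benjamini-Hochberg), 7 higher and 1 lower. The background was high: 37.2% of all genes passed, 17.7% higher and 19.5% lower. The median log2 difference of the members was 0.76, against 0.01 over all genes. Loss of both genes gave 7 members, 6 higher and 1 lower, against 35.4% of all genes, 17.4% higher and 18.1% lower, with a median of 0.72 against 0.01. Pgf passed in neither.

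**Figure D1:**
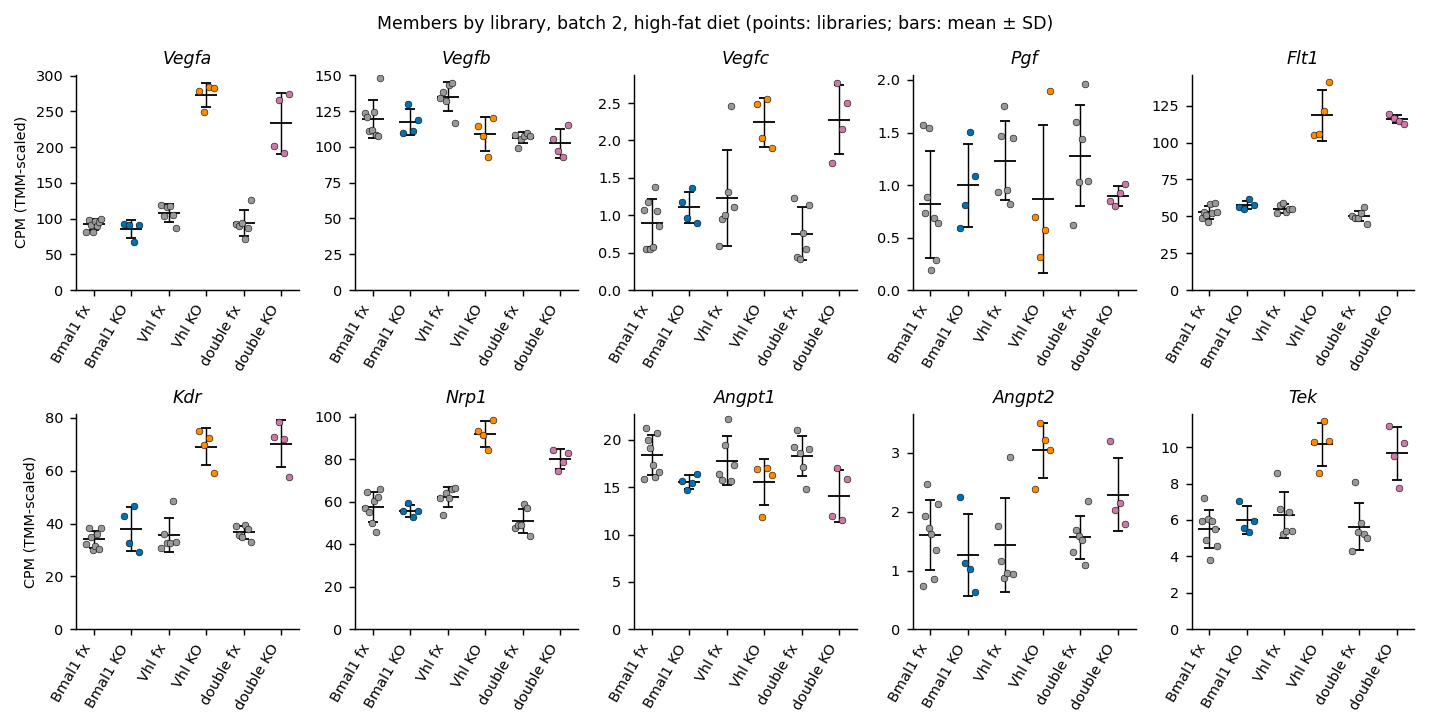
CPM of each of the 10 members (vertical axes, scaled between libraries, starting at 0) in the 32 libraries of batch 2, with points for libraries and bars for the mean ± SD of each group. Vegfa, Flt1, Kdr and Nrp1 of the Vhl and double knockouts sit above every library of their own floxed control, and the Bmal1 knockouts overlap theirs for all 10 members.

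Vegfa (chr17:46016993-46032369 on GRCm38, minus strand), the main angiogenic ligand, measured 86.6, 111 and 119 CPM as the lowest, median and highest of the 6 Vhl-line controls. The 4 Vhl knockouts measured 279, 249, 284 and 283 CPM. All 4 knockouts lay far above every control, a 2.5-fold difference (log2 1.32 ± 0.12 SE, adjusted p = 1.75e-10). Double-line controls ran from 72.2 over 91.4 to 127 CPM, and the knockouts measured 202, 267, 192 and 274 CPM. Their ranges did not overlap either, and the log2 difference was 1.32 ± 0.12 (adjusted p = 1.27e-10). The double knockouts fell into a pair near 200 CPM and a pair near 270 CPM, a wider spread (SD 42.7, n = 4) than in the Vhl knockouts (SD 16.8, n = 4).

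Vegfb (chr19:6982473-6987651, minus strand), a ligand of FLT1 linked to fatty acid handling in oxidative tissue, went the other way after Vhl loss. Its Vhl-line controls measured 117, 136 and 145 CPM at the lowest, median and highest, and the knockouts 115, 107, 93.0 and 120.4 CPM. The highest knockout lay above the lowest control, and the log2 difference was -0.33 ± 0.08 (adjusted p = 9.79e-04). Its size depends on scaling between libraries: with none beyond library size the value was 0.02. The median of all genes rose as well without scaling, to values given below, and Vegfb lay below that median. Vegfb did not pass in the double line (log2 difference -0.04 ± 0.08, adjusted p = 0.717): its controls spanned 99.3 to 110 CPM and its knockouts 92.6 to 115 CPM. Without scaling that value was 0.31, again below the median of all genes. The Vegfb level of the Vhl-line controls was itself the highest of the 3 control groups (means 135, 119 and 106 CPM in the Vhl, Bmal1 and double lines), and the Vhl knockouts lay within the range spanned by the other lines' controls save for 1 library.

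The Vegfa to Vegfb count ratio within each library was 0.721 to 0.888 in the Vhl-line controls and 2.32 to 3.05 in the knockouts. It was 0.673 to 1.18 in the double-line controls and 1.91 to 2.75 in the knockouts. Being a ratio within a library it does not depend on scaling, and in both lines every knockout lay above every control.

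Vegfc (chr8:54077606-54187096, plus strand), the ligand of lymphatic growth, was measured by 5 to 38 counts per library in these groups. Vhl-line controls measured 0.586, 1.06 and 2.46 CPM, and the knockouts 2.49, 2.03, 2.55 and 1.89 CPM. A single control reached the knockouts, and the log2 difference was 0.84 ± 0.32 (adjusted p = 0.0321). That call was lost in 9 of 21 alternatives, among them leaving out Vhl control 1, 2, 3 or 6 or knockout 1 or 3 and leaving out the libraries with keratin transcripts. Controls of the double line measured 0.413, 0.653 and 1.23 CPM and the knockouts 1.70, 2.76, 2.15 and 2.50 CPM, with no overlap (log2 difference 1.61 ± 0.32, adjusted p = 7.46e-05).

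Pgf (chr12:85166635-85177790, minus strand), placental growth factor, stood at 0 to 22 counts per library over the whole series. The Vhl-line controls measured 0.819 to 1.75 CPM and the knockouts 0.697, 0.312, 0.568 and 1.89 CPM, so 3 knockouts lay below every control and the fourth above them all. The log2 difference of -0.57 (95% interval -1.47 to 0.33, adjusted p = 0.331) did not pass, and without knockout 4 it was -1.25 (adjusted p = 0.0456). In the double line it was -0.49 (interval -1.34 to 0.37), and both intervals exclude a rise as large as that of Vegfa.

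Flt1 (chr5:147561604-147726011, minus strand), the high-affinity receptor and decoy of VEGF-A, measured 52.0, 55.0 and 59.2 CPM in the Vhl-line controls. The knockouts measured 105, 106, 121 and 141 CPM, all above every control (log2 difference 1.08 ± 0.07, adjusted p = 1.28e-16). For the double line the controls measured 45.1, 49.7 and 56.03 CPM and the knockouts 119, 117, 115 and 113 CPM. The ranges stood apart by more than the whole spread of either group (1.22 ± 0.07, adjusted p = 6.55e-19).

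Kdr (chr5:75932827-75978458, minus strand), the main signalling receptor of VEGF-A, measured 30.9, 32.9 and 48.5 CPM in the Vhl-line controls and 75.0, 69.6, 72.6 and 59.3 CPM in the knockouts. The groups did not overlap (0.94 ± 0.11, adjusted p = 1.53e-08), although control 5 stood well above the other controls. Its double-line controls spanned 33.2 to 39.4 CPM and the knockouts measured 72.7, 78.3, 72.1 and 57.6 CPM (0.95 ± 0.11, adjusted p = 7.94e-09). Nrp1 (chr8:128358604-128503363, plus strand), the co-receptor, whose exons share bases with Mir1903, measured 53.6, 62.8 and 66.5 CPM in the Vhl-line controls and 93.3, 91.4, 84.1 and 98.6 CPM in the knockouts. Its rise was smaller (0.55 ± 0.08, adjusted p = 6.15e-07) and again without overlap. It went in the double line from 44.0 to 59.0 CPM in controls to 84.5, 74.3, 78.8 and 82.7 CPM in knockouts (0.66 ± 0.08, adjusted p = 7.14e-09).

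Tek (chr4:94739289-94874976, plus strand), the angiopoietin receptor, measured 5.26, 5.91 and 8.56 CPM in the Vhl-line controls and 10.3, 8.59, 11.4 and 10.3 CPM in the knockouts. The lowest knockout lay just above the highest control (0.68 ± 0.16, adjusted p = 6.68e-04). In the double line the controls measured 4.31, 5.30 and 8.07 CPM, and 1 of the 4 knockouts (11.2, 9.53, 7.74 and 10.2 CPM) fell below the highest control (0.78 ± 0.16, adjusted p = 8.71e-05).

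Angpt1 (chr15:42424723-42676977, minus strand) encodes the stabilising ligand of TEK, and its exons share bases with Gm17473 on the opposite strand, whose reads cannot be told apart from it where the counting did not use strand, which no source used here states. It measured 15.7, 16.9 and 22.2 CPM in the Vhl-line controls and 16.9, 11.9, 17.0 and 16.3 CPM in the knockouts, which did not pass (-0.22 ± 0.12, adjusted p = 0.161). Double-line controls measured 14.8, 18.8 and 21.0 CPM and knockouts 11.9, 17.0, 11.6 and 15.8 CPM, with overlap. The double-line decrease passed (-0.37 ± 0.12, adjusted p = 0.0126) but not without knockout 1 or knockout 3, nor without scaling (-0.02). Without scaling the median of all genes had risen, and Angpt1 lay below it.

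Angpt2 (chr8:18690263-18741562, minus strand), the destabilising ligand, was measured by 7 to 45 counts per library in these groups. The Vhl-line controls measured 0.876, 1.06 and 2.92 CPM and the knockouts 2.39, 3.51, 3.22 and 3.05 CPM. A single control overlapped the knockouts (1.08 ± 0.31, adjusted p = 0.00504). In the double line the controls spanned 1.09 to 2.18 CPM and the knockouts measured 3.20, 2.04, 2.15 and 1.79 CPM, and the difference did not pass (0.54 ± 0.31, adjusted p = 0.175). Without scaling it passed at 0.90 (adjusted p = 0.0150), but the median of all genes had then risen too, as given below. The Angpt2 to Angpt1 count ratio ran from 0.0430 to 0.187 in Vhl-line controls and from 0.141 to 0.296 in knockouts, and from 0.0685 to 0.114 against 0.113 to 0.268 in the double line, where the lowest knockout and the highest control just overlapped.

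Counted by range, 5 members stood wholly above their controls after Vhl loss (Vegfa, Flt1, Kdr, Nrp1 and Tek), against 10.6% of all genes, and 5 after double loss (Vegfa, Vegfc, Flt1, Kdr and Nrp1), against 10.9%. None stood wholly below, against 11.6% and 13.1%.

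**Figure D2:**
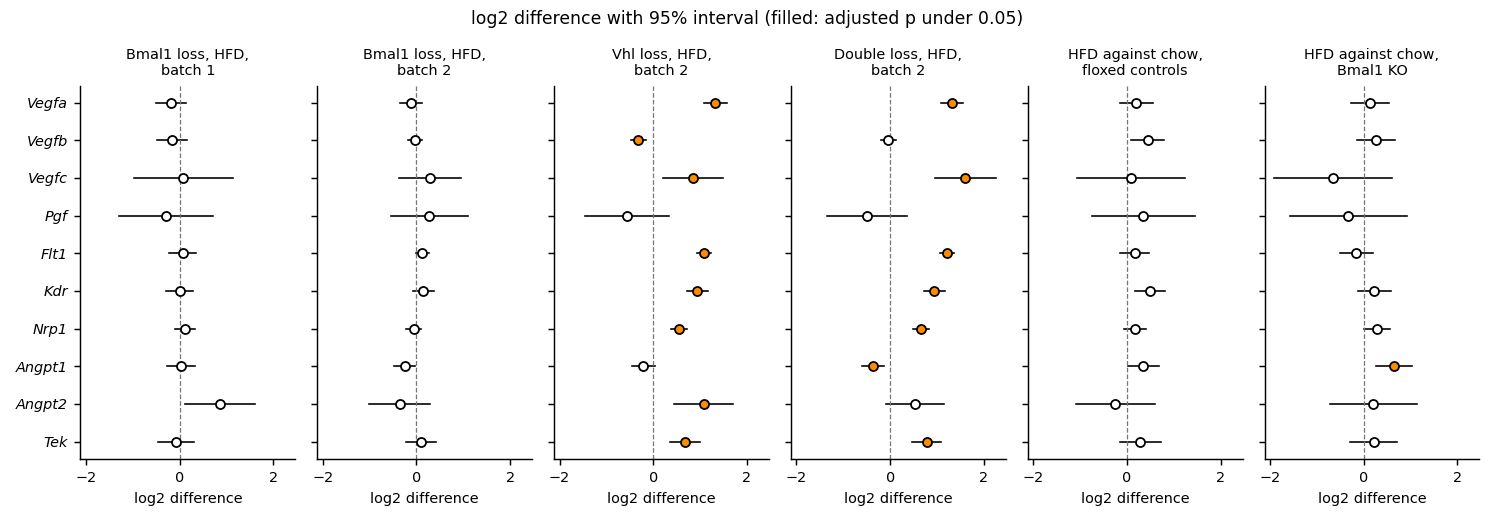
log2 difference of each member (points) with its 95% interval (lines) in 6 comparisons of a knockout with its floxed control or of high-fat diet with chow, with filled points at an adjusted p under 0.05. Filled points are found on the right of 0 for 7 members after Vhl loss and 6 after double loss, and intervals are widest for Vegfc, Pgf and Angpt2.

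Loss of Bmal1 changed none of the 10 members detectably. In batch 2 on high-fat diet 13.9% of all genes passed and 0 members did, and 10.1% of all genes and 0 members had groups that did not overlap, in batch 1 on high-fat diet 9.00% and 0 members, on chow 3.84% and 0 members, and in a joint fit of both high-fat batches 22.4% and 0 members. DESeq2 also called 0 members in each of these 4, limma 0 in the first 3, and 1 member in each had an unadjusted p under 0.05. In batch 2 Vegfa measured 81.0, 93.3 and 99.9 CPM in the 8 Bmal1fx/fx controls and 92.9, 91.3, 67.0 and 90.9 CPM in the knockouts. Knockout 8 alone lay below every control (-0.11, interval -0.35 to 0.12). In batch 1 the 7 high-fat controls measured 57.0, 66.5 and 82.3 CPM and the 5 knockouts 64.1, 70.7, 44.1, 65.7 and 55.7 CPM, with the lowest 2 of them below the controls (-0.19, interval -0.51 to 0.13). Over both batches the Vegfa difference was -0.14 ± 0.07 (adjusted p = 0.156).

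The intervals bound what these data allow for the receptors. For Flt1 the joint fit gave 0.10 (interval -0.04 to 0.25), for Kdr 0.08 (-0.13 to 0.28), for Nrp1 0.04 (-0.09 to 0.18) and for Tek 0.01 (-0.23 to 0.26). Each of these excludes a difference as large as that after Vhl loss. Flt1 in batch 2 measured 46.1, 52.3 and 59.0 CPM in controls and 56.5, 55.3, 61.8 and 57.7 CPM in knockouts.

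Angpt2 had the smallest unadjusted p of the members in batch 1 on high-fat diet. It measured 0.648, 0.915 and 1.596 CPM in the controls and 1.51, 2.90, 2.92, 1.17 and 1.05 CPM in the knockouts, 3 of which lay within the control range (0.86 ± 0.37, adjusted p = 0.168). In batch 2 its estimate had the opposite sign (-0.36 ± 0.32, adjusted p = 0.553). Flt1 on chow (0.38 ± 0.18, adjusted p = 0.357) and Angpt1 in batch 2 (-0.25 ± 0.11, adjusted p = 0.146) likewise had an unadjusted p under 0.05 and failed the adjustment.

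The differences between the knockout effects were tested in the same fit. The Vhl effect exceeded the Bmal1 effect for 5 members, Vegfa (by 1.44 ± 0.17, adjusted p = 8.25e-08), Flt1 (0.95 ± 0.10), Kdr (0.79 ± 0.16), Nrp1 (0.60 ± 0.12) and Angpt2 (1.44 ± 0.45), and was below it for Vegfb (-0.29 ± 0.11, adjusted p = 0.0429), against 25.3% of all genes, 12.2% higher and 13.1% lower. The double effect exceeded the Bmal1 effect for 6, Vegfa (1.44 ± 0.17, adjusted p = 1.94e-07), Flt1 (1.09 ± 0.10), Kdr (0.80 ± 0.16), Nrp1 (0.72 ± 0.12), Vegfc (1.33 ± 0.47) and Tek (0.68 ± 0.22), against 16.7%, 7.69% higher and 9.04% lower. The calls on Vegfb, Vegfc and Tek were lost in 19 of 33, 16 of 32 and 8 of 33 alternatives.

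Adding loss of Bmal1 to loss of Vhl did not change the effect on any member detectably. The double effect minus the Vhl effect called 0 members, against 8.56% of all genes, and the double effect minus the sum of both single effects called 0, against 3.79%. DESeq2 called 0 of the 7 members to which it gave an adjusted p in each, and 1 member, Vegfb, had an unadjusted p under 0.05 in each (0.28 ± 0.11, adjusted p = 0.109, against the Vhl effect). For Vegfa the interval of the double minus the Vhl effect was -0.34 to 0.34, for Flt1 -0.08 to 0.34, for Kdr -0.32 to 0.33 and for Angpt2 -1.43 to 0.35. A modifying effect of up to about those sizes is not excluded.

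Other genes of the pathway, on lists that hold no member, moved in the same comparisons. Of 19 other angiogenic ligands tested, 14 rose and 3 fell after Vhl loss, with a median of 0.95, and 13 rose and 1 fell after double loss, with a median of 0.97. Adm, adrenomedullin, rose most clearly, from 1.26 to 3.67 CPM in Vhl-line controls to 17.4 to 26.0 CPM in knockouts (2.89 ± 0.23), and by 3.57 ± 0.22 in the double line. Figf, the gene of VEGF-D, rose by 1.66 ± 0.18 and 1.54 ± 0.17, Efnb2, an arterial ephrin, by 1.27 ± 0.16 and 1.06 ± 0.15, Pdgfb, which recruits pericytes, by 1.02 ± 0.13 after Vhl loss, and Apln, the ligand of the apelin receptor, by 2.31 ± 0.35 after double loss. Fgf2 fell in both, and Pdgfa and Sema3c fell after Vhl loss. Without scaling, where the median of all genes was higher, none of these falls kept its call, with 14 rises and 0 falls in each comparison.

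Of 25 other receptors and signalling genes, 17 rose and 1 fell after Vhl loss and 20 rose and 1 fell after double loss. Of these 25, 3 (Tie1, Ptprb and Robo4) are also on the list of endothelial markers below. Pdgfrb is also a pericyte marker, Flt4 a lymphatic endothelial marker and Pdgfra a fibro-adipogenic progenitor marker. S1pr1, the endothelial sphingosine receptor, rose by 1.16 ± 0.11 and 1.08 ± 0.11, Tie1, the partner of TEK, by 1.40 ± 0.14 and 1.12 ± 0.15, Ptprb, the phosphatase that dampens TEK, by 0.72 ± 0.08 and 0.88 ± 0.08, and Ramp2 by 1.07 ± 0.12 after Vhl loss. The gene that fell in both was Met, the receptor of hepatocyte growth factor, by 0.68 ± 0.17 after Vhl loss and 2.08 ± 0.19 after double loss, and it fell by 1.42 ± 0.17 after Bmal1 loss in batch 2. Without scaling 23 of the 25 rose and 0 fell after Vhl loss, so Met lost its call there, and 24 rose and 1 fell after double loss. Of 9 angiogenesis inhibitors tested, 4 rose and 0 fell in each, led by Timp3 (0.45 ± 0.10) after Vhl loss and Cd36 (0.39 ± 0.09) after double loss. Without scaling 8 of the 9 rose after Vhl loss (median 0.62) and 7 after double loss (median 0.54), with 0 falls. The median of all genes rose too without scaling, as given below, and most calls over all genes were then higher. In the Bmal1 line of batch 2 the same 3 lists had 1 rise of 19, 1 rise and 2 falls of 25, and 1 fall of 9, the fall being Adamts1 (-0.64 ± 0.11).

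Targets of HIF outside angiogenesis rose in 11 of 14 cases after Vhl loss and 12 of 14 after double loss, with 0 falls in either. The enzyme gene Car9 rose by 6.17 ± 0.17 and 6.04 ± 0.17, the oxygen sensor Egln3 by 4.19 ± 0.13 and 4.07 ± 0.13, and P4ha1 by 2.39 ± 0.09 and 2.11 ± 0.09. In the Bmal1 line of batch 2, 5 of the 14 fell and 0 rose, among them Ldha (-0.52 ± 0.07), Mxi1 (-0.64 ± 0.08) and Pfkfb3 (-1.67 ± 0.20), while Vegfa did not pass. Of 11 regulators of Vegfa in muscle, 1 rose and 4 fell after Vhl loss, and 2 rose and 8 fell after double loss. That list holds the deleted genes Vhl and Arntl themselves, and Vhl is 1 of the 4 falls after Vhl loss. These counts are therefore not all a response of other genes to the deletion. Epas1, the gene of HIF-2α, rose by 0.48 ± 0.08 and 0.47 ± 0.08. Ppargc1a, the coactivator PGC-1α that can induce Vegfa independently of HIF, fell by 1.00 ± 0.31 and 1.71 ± 0.33, and Hif1a fell by 0.60 ± 0.12 after double loss. Without scaling, where the median of all genes was higher, 3 rose and 1 fell after Vhl loss, and 2 rose and 2 fell after double loss. Esrra after Vhl loss and Arnt after double loss then turned direction.

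**Figure D3:**
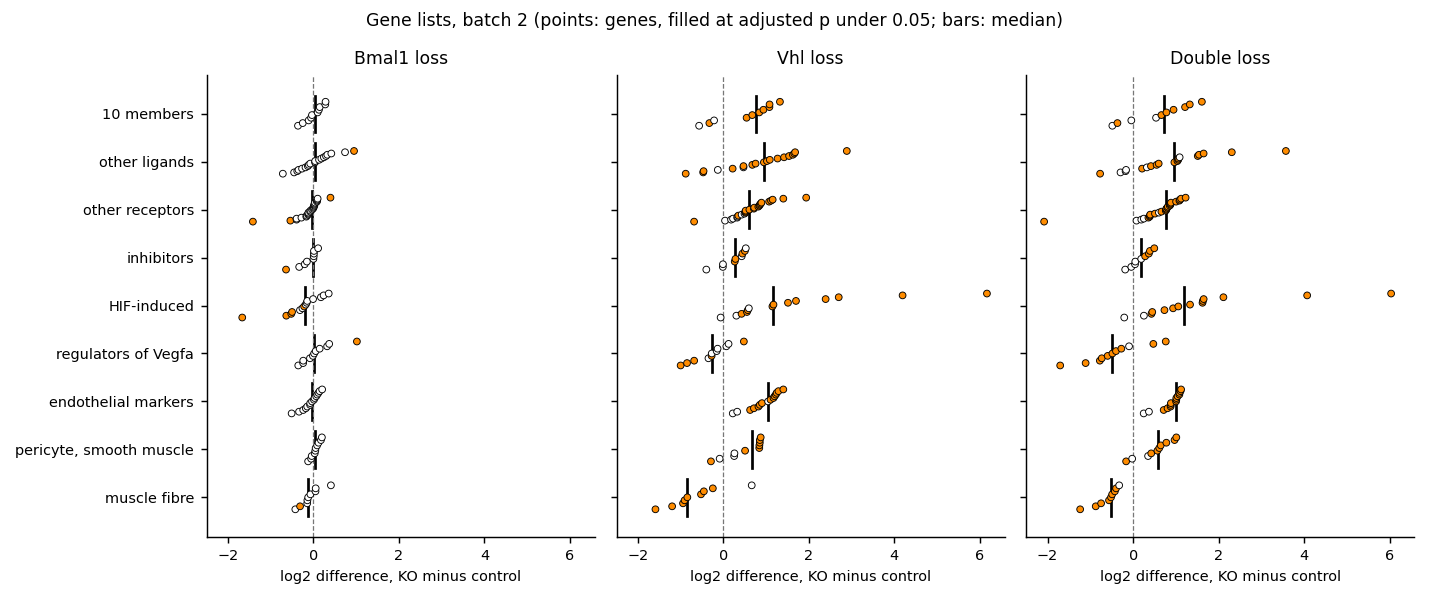
log2 difference of every tested gene (points) of 9 lists after loss of Bmal1, Vhl or both in batch 2, filled at an adjusted p under 0.05, with a bar at each list's median. The medians of the members, the other ligands, the other receptors, the HIF-induced genes and the endothelial and pericyte markers lie between 0.59 and 1.19 after Vhl or double loss, and those of the muscle fibre markers at -0.84 and -0.52.

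Markers of several other cell types moved with these results. Of 15 endothelial markers, none of them a member, 12 rose after Vhl loss (median 1.05) and 13 after double loss (median 1.00), against a median of -0.03 after Bmal1 loss in batch 2. Their summed level was 203 to 233 CPM in Vhl-line controls and 392 to 472 CPM in knockouts, and 190 to 207 against 340 to 401 CPM in the double line. None of the 15 was at 0 in any group, and Pecam1 went from 34.6 to 40.5 CPM to 70.6 to 109 CPM and Cdh5 from 21.4 to 23.5 CPM to 41.2 to 57.8 CPM in the Vhl line. Pericyte and smooth muscle markers rose in 6 of 10 and 7 of 10 cases, with 1 fall each (Abcc9, which turned direction without scaling), and their summed level went from 390 to 446 CPM to 584 to 648 CPM in the Vhl line and from 387 to 425 CPM to 588 to 671 CPM in the double line. Muscle fibre markers fell in 8 of 9 cases in each, of which Ckm after Vhl loss turned direction without scaling. Without scaling, where the median of all genes was higher, 5 of the 9 fell in each, and 1 rose after Vhl loss. Macrophage markers rose in 4 of 8 cases after Vhl loss (median 0.59) and in 1 of 8 after double loss (median 0.13), and adipocyte markers fell in 2 of 6 cases (median -1.14) and 3 of 6 (median -1.04). Without scaling 7 and 4 of the macrophage markers rose. Of the adipocyte markers 1 then fell in each comparison, and 1 rose after double loss. Of 5 lymphatic endothelial markers tested, 1 rose and 1 fell after Vhl loss, and 1 rose after double loss. Without scaling 3 and 2 of them rose, with 0 falls. Fibro-adipogenic progenitor markers rose in 2 of 7 cases in each, with 1 fall after Vhl loss, and without scaling 3 and 4 rose with 0 falls. The 1 lymphocyte marker tested, of 8 listed, fell after Vhl loss (-0.77) and rose after double loss (1.33). Without scaling the fall was not called (-0.41). The same marker rose after Bmal1 loss alone, by 1.94 in batch 2 and by 2.55 on high-fat diet and 1.98 on chow in batch 1. The part of these cell types in the members' values was not tested. The haemoglobin gene Hbb-bs went from 488 to 885 CPM to 3384 to 4244 CPM after Vhl loss and from 465.5 to 668 CPM to 1795 to 2886 CPM after double loss. In whole muscle, more cells of a type and more RNA per cell cannot be told apart.

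Set against the summed endothelial markers of the same library, the receptors behaved unequally. The Kdr to endothelial ratio was 0.140 to 0.230 in Vhl-line controls and 0.133 to 0.177 in knockouts, and the Tek ratio 0.0226 to 0.0423 against 0.0219 to 0.0242, so both overlapped. The Flt1 ratio overlapped in the Vhl line (0.242 to 0.270 against 0.236 to 0.316) and stood above the controls in the double line (0.225 to 0.278 against 0.297 to 0.332). The Nrp1 ratio was lower in every Vhl knockout than in any control (0.178 to 0.233 against 0.251 to 0.325) and overlapped in the double line (0.196 to 0.243 against 0.220 to 0.285). With the mean endothelial marker level as a covariate, 2 members stayed called after Vhl loss, Vegfa at 1.52 (adjusted p = 0.00337) and Flt1 at 0.94 (adjusted p = 0.00132), and 3 after double loss, Vegfa at 1.51 (adjusted p = 0.00116), Flt1 at 1.08 (adjusted p = 4.48e-05) and Nrp1 at 0.69 (adjusted p = 0.0309). Kdr was 0.52 (adjusted p = 0.349) and 0.55 (adjusted p = 0.282). Tek lost its call in both lines at estimates above those without the covariate, 1.15 (adjusted p = 0.102) and 1.22 (adjusted p = 0.0521), and so did Nrp1 after Vhl loss at 0.58 (adjusted p = 0.116). Vegfc was 0.60 (adjusted p = 0.784) and 1.38 (adjusted p = 0.390). Angpt2 at 0.12 (adjusted p = 0.965) and Vegfb at -0.23 (adjusted p = 0.584) lost their calls after Vhl loss, and Angpt1 at -0.14 (adjusted p = 0.865) after double loss. The marker level and the genotype moved together in these libraries, so their parts in the members that lost a call cannot be told apart by that fit. The share of all genes called in it is not given here, so the losses are not shown to be particular to the members.

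**Figure D4:**
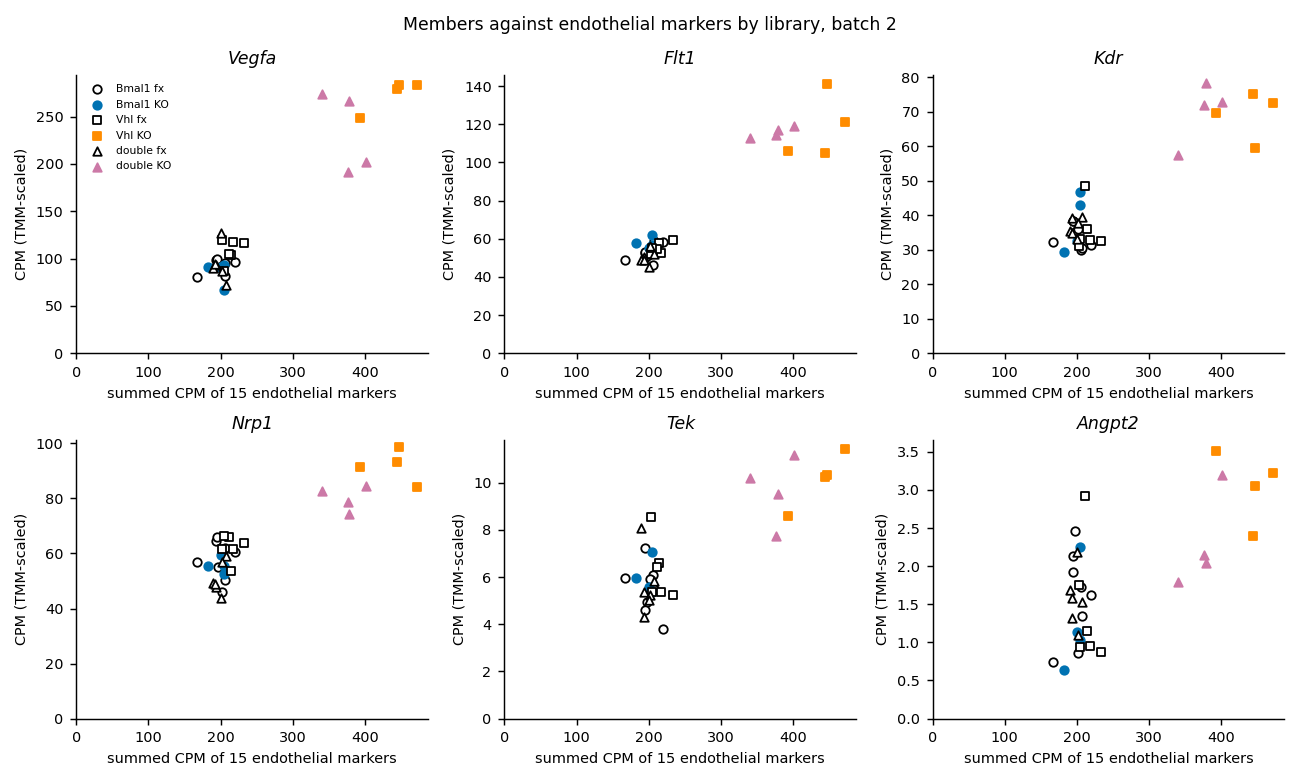
CPM of 6 members (vertical axes) against the summed CPM of 15 endothelial markers (horizontal axes) in the 32 libraries of batch 2, with open symbols for floxed controls and filled symbols for knockouts. The Vhl and double knockouts lie at 340 to 472 CPM of marker level and all other libraries at 167 to 233 CPM, with no library between.

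Mitochondrial transcripts and scaling also moved with genotype. The mitochondrial share was 34.0% to 38.8% in Vhl-line controls and 27.1% to 34.7% in knockouts, and 22.3% to 29.4% against 16.6% to 23.1% in the double line. Leaving mitochondrial genes out gave Vegfa differences of 1.34 and 1.33. Without any scaling the median of all genes moved to 0.35 after Vhl loss and 0.37 after double loss, 5815 of 6499 calls were then higher against 2320 of 4876 in the scaled fit (6230 of 7008 against 2272 of 4638 after double loss), and 7 and 8 members were called. Relative to that shift, Vegfa at 1.67 and 1.68 and Flt1 at 1.42 and 1.57 were about as far from the median as in the scaled fit. Leaving out the 6 libraries with keratin transcripts left 7 members called in each comparison. The share of all genes called in that refit is not given here.

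No member was called for high-fat diet under every alternative run. In the floxed controls of batch 1, 0 of 10 passed, against 2.37% of all genes (DESeq2 also 0, with 3 at an unadjusted p under 0.05). Kdr came closest: the 4 chow controls measured 27.2, 22.9, 25.3 and 27.0 CPM and the 7 high-fat controls 28.0, 37.8 and 48.5 CPM at the lowest, median and highest. These ranges did not overlap, as for 1.90% of all genes in that direction, but the difference failed the adjustment (0.49 ± 0.15, adjusted p = 0.0922). It passed when low counts were not filtered (0.51, adjusted p = 0.00214), when the other groups were left out of the fit (0.50, adjusted p = 0.0302) and without high-fat control 7 (0.55, adjusted p = 0.0481). Vegfb measured 50.8, 55.8, 78.9 and 96.4 CPM on chow and 73.4, 104 and 114 CPM on high-fat diet (0.45 ± 0.17, adjusted p = 0.215), with overlap, and passed at 0.64 (adjusted p = 0.0344) without chow control 4. Vegfa did not differ beyond its spread (0.20, interval -0.14 to 0.55): chow controls measured 71.2, 50.8, 54.1 and 57.1 CPM.

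In the Bmal1 knockouts 1 of 10 members passed, against 3.28% of all genes, 1.72% higher. Angpt1 measured 11.4, 8.25 and 10.0 CPM in the 3 chow knockouts and 19.9, 18.5, 13.0, 16.5 and 11.4 CPM in the 5 high-fat knockouts (0.65 ± 0.19, adjusted p = 0.0458). The lowest high-fat library reached the chow range, and the call was lost in 10 of 20 alternatives, including without chow knockout 2 or 3 or high-fat knockout 1, 2 or 4. In the controls Angpt1 measured 13.9, 10.9, 12.4 and 10.2 CPM on chow and 11.8, 15.2 and 20.5 CPM on high-fat diet (0.35 ± 0.16, adjusted p = 0.323). The diet effects of the genotypes were not shown to differ: the interaction was 0.30 ± 0.24 for Angpt1 (adjusted p = 1), and 0 members passed it by edgeR, DESeq2 or limma, with 0 at an unadjusted p under 0.05, where 0% of the 12762 genes passed by edgeR and 3 genes by DESeq2. Mitochondrial share moved with diet, from 24.6% to 32.9% on chow to 32.6% to 42.5% on high-fat diet in controls and from 23.3% to 29.0% to 30.1% to 37.9% in knockouts, and Angpt1 in the knockouts was 0.64 (adjusted p = 0.0489) with mitochondrial genes left out. The 15 endothelial markers had a median diet difference of 0.13 in controls and 0.06 in knockouts, while in the knockouts 2 of 10 pericyte and smooth muscle markers (Acta2 and Tagln), 2 of 8 macrophage markers (Csf1r and C1qb), 1 of 7 fibro-adipogenic progenitor markers (Dpt) and 1 of 6 adipocyte markers (Lep) rose on high-fat diet. Their part in the Angpt1 value was not tested.

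**Figure D5:**
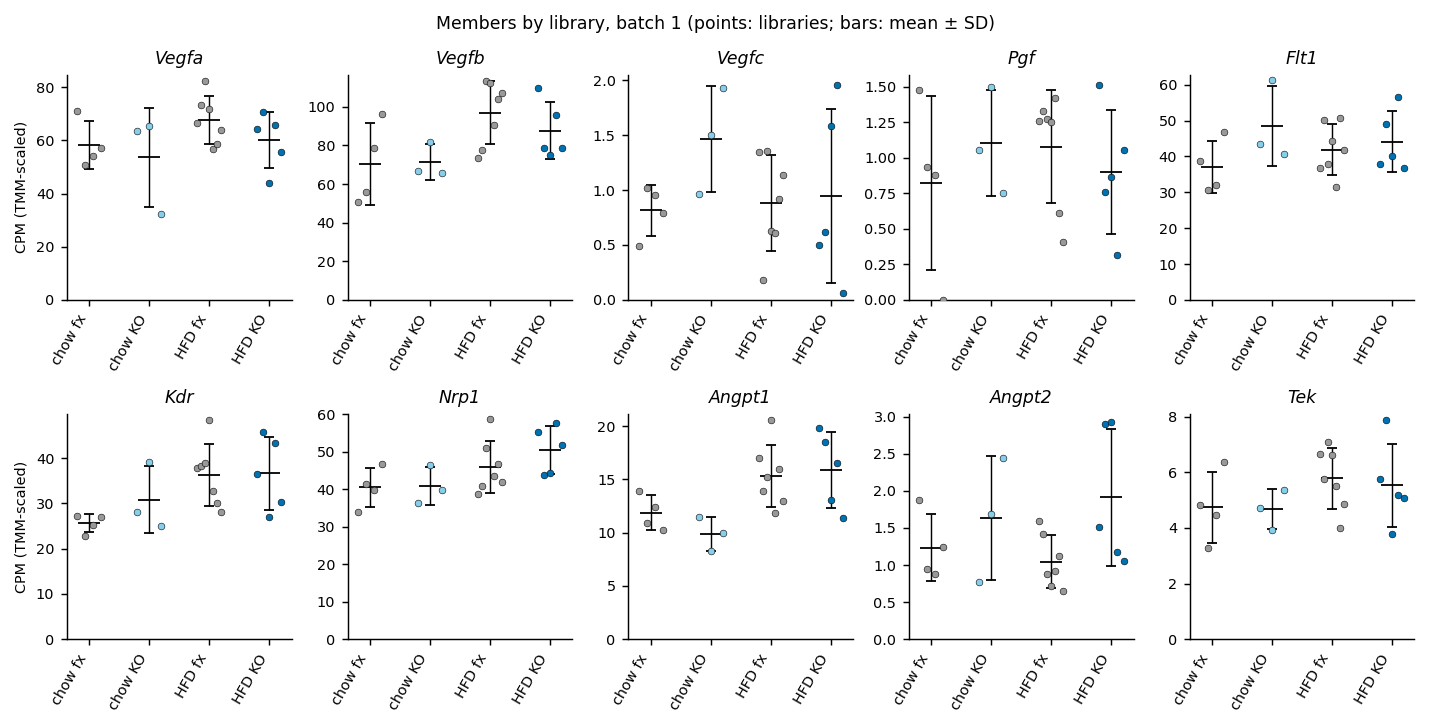
CPM of each member (vertical axes, scaled between libraries, starting at 0) in the 19 libraries of batch 1, by diet and genotype, with points for libraries and bars for the mean ± SD. In the comparisons by diet within a genotype and by genotype within a diet, groups overlap for every member except Kdr between chow and high-fat controls, at 22.9 to 27.2 against 28.0 to 48.5 CPM.

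Variation within groups was compared between members over all 51 libraries, with each gene's log2 CPM centred on its group mean, and Vegfc, Pgf and Angpt2 were left out for their low level. The closest pair was Vegfb and Nrp1 (Pearson r = 0.64), followed by Vegfa and Angpt1 (0.41) and Flt1 and Kdr (0.35), while Vegfa and Nrp1 gave 0.01. Among 7796 genes with a mean log2 CPM of at least 2 the pattern nearest to Vegfa was that of Abra (r = 0.70), then Ppara (0.66) and Slc47a1 (0.63). Nearest to Vegfb were the mitochondrial transcript mt-Nd1 (0.82), Coq5 (0.82) of ubiquinone synthesis and Ogdh (0.80) of the citric acid cycle. Nearest to Flt1 was Ptprb (0.68), nearest to Kdr were Gm5617 (0.62) and Ptpn3 (0.61), nearest to Nrp1 were Eci1 (0.69) and Acot2 (0.69) of fatty acid metabolism and Bmp4 (0.68), nearest to Tek were Acadm (0.56), Decr1 (0.55) and Plin5 (0.54), and nearest to Angpt1 was Zeb2 (0.56). The libraries differed in depth and mitochondrial share, whose part in these values was not tested. Several values were unequal between the batches: Flt1 with Ptprb gave 0.86 in batch 1 and 0.33 in batch 2, Tek with Acadm 0.83 and 0.27, and Vegfa with Ppara 0.86 and 0.47.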

How the data were processed

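RNA of whole gastrocnemius (300 ng per library) was sequenced with a 3′ tag kit (Lexogen QuantSeq), per the labels' protocols. The submitters' processing notes name FastQC 0.11.4, STAR 2.6.0 and HTSeq as tools and mm10 and GRCm38.p4 as builds. The deposited tables hold whole-number counts per gene symbol, made by the authors with these tools. A further pair of deposited tables holds a normalized signal, counts that the authors scaled (edgeR 3.26.8 is named in the submitters' processing notes) with low genes absent. No source used here states whether counting used strand.

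Counts were analysed with edgeR 4.0.16 (R 4.3.3), with low genes filtered by group, TMM scaling, and 1 robust quasi-likelihood fit per batch over all its groups, with Benjamini-Hochberg adjustment over 12762 genes in batch 1 and 13093 in batch 2. A joint fit of the high-fat Bmal1 libraries of both batches had batch as a term and 12565 genes. A call is an adjusted p under 0.05, differences are log2 with a standard error or a 95% interval, and CPM values are TMM-scaled. Of 48321 symbols, 27 were turned into dates in the batch 2 table and 48294 were joined. Alternatives were DESeq2 1.42.0, limma 3.58.1 on log2 of the deposited normalized signal plus 1, other scalings and filters, mitochondrial genes or single libraries left out, an endothelial covariate (mean log2 level of 15 markers), a replicate block and the contrast's groups alone. Leaving out libraries with keratin transcripts (Krt5 and Krt14 together over 1 CPM) or with Cd3e, and the red blood cell list, were chosen after seeing the data. Scripts were tested on simulated counts. All 10 members passed the filters and are all described. Genes are named as follows: all members, the targeted genes, up to 4 called genes per list and comparison with the smallest p, and up to 3 genes per member with the highest Pearson r. Genes that fell among mostly rising lists, the haemoglobin gene and genes that changed direction without scaling were named after their values were seen. The members and lists were chosen with earlier results of these data known. Members, lists and groups come from the labels and gene names, and the labels' animal numbers do not pair samples across groups.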

Additional observations from a re-analysis of the deposited data

Results flagged for a closer look

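Of 90 sets of a member and a group of 4 to 10 libraries, 5 held a library far from the others by Dixon's criterion, which chance alone flags in about 1 in 20 sets. Vegfa was lowest in Bmal1 knockout 8 of batch 2 at 66.96 CPM and in Vhl knockout 2 at 248.7 CPM. Angpt1 was also lowest in Vhl knockout 2, at 11.87 CPM. Vegfb was highest in Bmal1fx/fx control 15 of batch 2 at 147.7 CPM, and Kdr was highest in Vhl-line control 5 at 48.52 CPM.

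The effect of Vhl loss differed from that of Bmal1 loss in the edgeR fit of batch 2 by a log2 value of 1.438 for Vegfa, -0.2909 for Vegfb, 0.9542 for Flt1, 0.792 for Kdr, 0.6017 for Nrp1 and 1.441 for Angpt2. The effect of double loss differed from that of Bmal1 loss by 1.438 for Vegfa, 1.325 for Vegfc, 1.088 for Flt1, 0.7991 for Kdr, 0.7178 for Nrp1 and 0.681 for Tek.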

How the results depend on the processing

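Over all members, comparisons and alternatives run, 660 of 741 values of called results kept their direction and call, 80 lost the call and 1 changed sign, and among 2764 values of uncalled results 19 gained a call and 1 changed sign with a call. Vegfa and Flt1 kept their calls under every alternative run for the Vhl and double comparisons. Both sign changes were Vegfb without scaling: 0.0224 (adjusted p = 0.833) after Vhl loss, and 0.3099 (adjusted p = 9.35e-04) after double loss, where all calls are relative to a median of all genes shifted to 0.35 and 0.37. Without scaling the share of higher calls also changed in the other comparisons, to 1227 of 1598 from 488 of 1149 for Bmal1 loss in batch 1, to 1382 of 1995 from 909 of 1820 in batch 2 and to 107 of 709 from 193 of 302 for diet in controls, with 0 members called in each. The endothelial covariate left 2 members called after Vhl loss, 3 after double loss, 2 for the Vhl minus the Bmal1 effect and 2 for the double minus the Bmal1 effect, and 0 for diet in knockouts. The parts of marker level and genotype cannot be told apart by that fit. The share of all genes called is not given here for that fit or for the alternatives named below, so these member counts have no background beside them. For diet in knockouts the count was also 0 with the contrast's groups alone, with limma, without scaling and without the robust option, and 0 to 1 when single libraries were left out. For diet in controls it was 2 with no filter on low counts, 1 with the contrast's groups alone, and 0 to 1 when single libraries were left out, and the cause was not tested. The animal number as a replicate block gave 1 member there, Kdr at 0.65 (adjusted p = 0.00540). Same-numbered samples correlated at -0.29 to 0.17. With only 2 to 5 shared numbers per comparison, these values cannot show whether the numbers stand for anything shared. No block or limma fit was run for the joint fit of both batches. Depth limits Vegfc, Pgf and Angpt2, whose libraries held 0 to 45 counts of each.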
